A study of Mus musculus with 48 samples.

Results

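Tubular potassium channels, a chloride channel subunit and subunits of the sodium pump were followed over the day in mouse kidney. The set held 7 genes, Kcnj1, Kcnj10, Kcnj15, Kcnj16, Atp1b1, Fxyd2 and Bsnd, out of 12423 genes with values in both assays. They were listed by symbol and by no cutoff on their values, though with earlier results of these data known. Kidneys of male C57BL/6JRj mice aged 11 to 12 weeks, kept under 12 h of light and 12 h of dark, were collected at 12 Zeitgeber times (ZT, hours after lights on) at 2 h intervals. At each time point there were 2 pools, numbered replicate 1 and 2, and every pool was the lysate of 2 animals. RNA-seq (total RNA, mRNA abundance) and RPF-seq (ribosome-protected fragments, footprint abundance) were made from each pool, giving 24 libraries of each assay. No animal carried a mutation or received a treatment named in the labels, so the comparison was between times of day.

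The kidney tubule moves salt by coupling the sodium pump of the basolateral membrane to channels and transporters on both faces of the cell. Besides its catalytic part, the pump holds a beta subunit needed for its folding and delivery to the membrane, and a small FXYD protein that tunes its affinity for ions. Potassium that enters through the pump leaves again through inward rectifier (Kir) channels. Kcnj1 encodes ROMK, the apical channel that recycles potassium in the thick ascending limb and secretes it in the distal nephron, Kcnj10 and Kcnj16 form the basolateral channel of the distal convoluted tubule, and Kcnj15 is a basolateral Kir subunit of the proximal tubule. Bsnd encodes barttin, an accessory subunit that basolateral chloride channels need to reach the membrane.

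All 7 genes passed the filter on low values, a median of at least 0.5 RPKM in each assay, which left 11863 genes for the tests. RPKM are reads scaled to the length of the coding sequence and to library size, so levels can be compared between genes. The values stepped in whole reads, and relative depth read from these steps ranged from 0.598 to 2.04 in RNA-seq (median 1.14 in the light phase and 0.812 in the dark phase) and from 0.701 to 1.58 in RPF-seq (medians 1.18 and 0.910). Kcnj10 and Bsnd had the fewest reads, 203 to 827 and 347 to 1296 per library in RNA-seq and 460 to 1292 and 503 to 1270 in RPF-seq, and Atp1b1 the most in RPF-seq, with 43905 to 110819. The labels of time were checked with core clock genes. Arntl mRNA varied 25-fold with a fitted peak at 22.5 h, Dbp 42.1-fold at 10.5 h, Nr1d1 21.7-fold at 7.52 h and Per2 7.73-fold at 14.7 h. RNA-seq replicates were least alike at ZT10 (Spearman correlation 0.985 across genes) and RPF-seq replicates at ZT04 (0.984). As kidney was sampled whole, fewer cells of a tubule segment and less RNA per cell cannot be told apart.

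The sequences around the start codon are shown because the genes differed in footprints per mRNA. They were read from the annotated principal transcripts (GENCODE vM21, GRCm38). The start codon is in capitals, with the 6 bases before it and the base after it.
Kcnj1: gaaaggATGt
Kcnj10: gccaagATGa
Kcnj15: ccaaagATGg
Kcnj16: gaaagaATGa
Atp1b1: gacaccATGg
Fxyd2: cctaccATGg
Bsnd: gccaccATGg
All 7 carried a purine 3 bases before the start codon, and Kcnj15, Atp1b1, Fxyd2 and Bsnd also a G directly after it. The 4 Kir genes have their whole coding sequence in a single exon: Kcnj1 at chr9:32372493-32399197 (plus strand, 372 residues), Kcnj10 at chr1:172341210-172374085 (plus, 379), Kcnj15 at chr16:95257558-95300260 (plus, 375) and Kcnj16 at chr11:110968033-111027968 (plus, 419). Atp1b1 lies at chr1:164437109-164458355 on the minus strand with 6 coding exons (304 residues), Bsnd at chr4:106483456-106492283 on the minus strand with 4 (307 residues), and Fxyd2 at chr9:45399669-45410278 on the plus strand with 5 coding exons and only 192 coding bases. Nme7 overlaps the end of Atp1b1 by 617 bases on the other strand, and the antisense genes Gm31641 and Gm49643 overlap Kcnj15, but none of their exons touches the coding sequence in which reads were counted.

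Promoters are shown for the channel and the pump subunit whose mRNA had the smallest adjusted p, and for the only promoter of these genes in which a searched motif was found. RefSeq promoter windows (250 bases before to 50 after the start site, GRCm38.p6) existed for 5 of the 7 genes, in 8 sequences. Fxyd2 and Bsnd had none. The only Kcnj1 window lay inside the annotated gene and not at its first base, where no window was searched. Motif matches are in capitals.
Kcnj1 promoter, chr9:32393735-32394034, plus strand: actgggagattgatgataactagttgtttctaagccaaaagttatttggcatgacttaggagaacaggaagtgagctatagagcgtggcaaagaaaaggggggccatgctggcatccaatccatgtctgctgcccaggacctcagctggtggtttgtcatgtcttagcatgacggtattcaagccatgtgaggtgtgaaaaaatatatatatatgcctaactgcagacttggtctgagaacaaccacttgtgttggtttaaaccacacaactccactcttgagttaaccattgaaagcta
Atp1b1 promoter, chr1:164458306-164458605, minus strand: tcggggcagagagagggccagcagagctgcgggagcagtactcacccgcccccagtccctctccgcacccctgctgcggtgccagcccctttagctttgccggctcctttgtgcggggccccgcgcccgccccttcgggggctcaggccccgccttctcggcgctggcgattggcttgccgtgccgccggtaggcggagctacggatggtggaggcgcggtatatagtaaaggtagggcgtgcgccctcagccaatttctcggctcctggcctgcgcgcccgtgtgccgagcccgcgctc
Kcnj16 promoter, chr11:110967783-110968082, plus strand: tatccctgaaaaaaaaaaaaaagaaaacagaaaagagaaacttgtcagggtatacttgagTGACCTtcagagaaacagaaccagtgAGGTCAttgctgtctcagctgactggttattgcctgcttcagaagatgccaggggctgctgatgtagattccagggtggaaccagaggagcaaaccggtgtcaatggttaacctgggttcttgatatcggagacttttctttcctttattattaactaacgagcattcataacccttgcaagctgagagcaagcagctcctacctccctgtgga
The motifs searched on both strands were the E-box CACGTG, its variant CACGTT, the D-box TTATGTAA, the receptor half-site AGGTCA and the glucocorticoid response element. AGGTCA stood in this Kcnj16 promoter at positions -190 and -164 from the start site, while 16.3% of 32851 promoters of this length held it. The other motifs were found in none of the 8 windows, against 7.15%, 4.68%, 0.938% and 0.475% of all promoters. A match here is a description of letters and was not tested as a binding site.

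The genes spanned more than 2 orders of magnitude in abundance, with both pump subunits far above the channels. Fxyd2 mRNA stood at 3309 ± 355 RPKM (SD, n = 24 libraries over all times) and Atp1b1 mRNA at 1608 ± 254 RPKM. Among the channels, Kcnj15 followed at 458 ± 37.9 RPKM, Kcnj16 at 394 ± 19.9 and Kcnj1 at 143 ± 20.5. Bsnd (38.8 ± 4.92 RPKM) and Kcnj10 (22.3 ± 4.44 RPKM) were the lowest. Fxyd2 footprints, at 6714 ± 658 RPKM, ranked 4 among all genes tested and Atp1b1 footprints, at 3565 ± 411, ranked 15. The order of footprints differed from that of mRNA at a single place. Kcnj16 footprints (655 ± 57.1 RPKM) exceeded those of Kcnj15 (357 ± 41.6), although Kcnj15 mRNA was the higher one in 23 of 24 libraries. Kcnj1 (138 ± 12.5), Bsnd (39.0 ± 4.24) and Kcnj10 (33.8 ± 4.63) kept their places. Every neighbouring pair differed within libraries (12 sign-flip permutation tests of 100000 draws, two-sided, adjusted p of 1.09e-05 to 2e-05, where a p of 1e-05 is the smallest such draws can give). The ranges over libraries nevertheless overlapped between Kcnj15 and Kcnj16 mRNA, and between Bsnd and Kcnj10 in both assays.

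**Figure D1:**
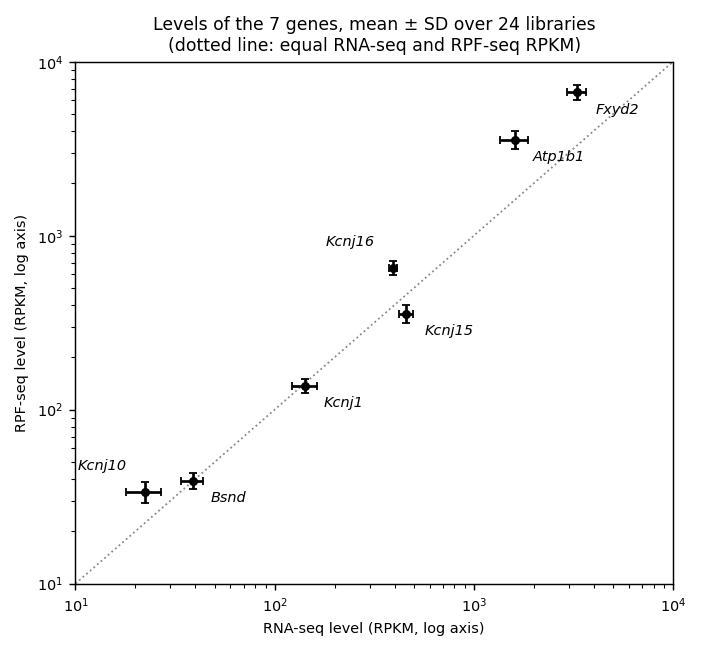
Mean RNA-seq level (x axis, RPKM, log axis) against mean RPF-seq level (y axis, RPKM, log axis) of the 7 genes; bars are the SD over 24 libraries and the dotted line marks equal values. Fxyd2, Atp1b1, Kcnj16 and Kcnj10 lie above the line, Kcnj15 lies below it, and Kcnj1 and Bsnd lie near it.

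Translation efficiency (TE), footprint RPKM divided by mRNA RPKM within a pool, set the genes apart. Mean TE was 2.25 ± 0.330 for Atp1b1 and 2.04 ± 0.221 for Fxyd2, at percentiles 97.3 and 95.6 of the 11863 genes, whose median was 0.955. Kcnj16 (1.66 ± 0.112) and Kcnj10 (1.57 ± 0.385) came next. Bsnd (1.01 ± 0.121) and Kcnj1 (0.976 ± 0.109) sat near the median gene, and Kcnj15 (0.780 ± 0.0697) lay below it, at percentile 37.7. The TE of Atp1b1, Fxyd2 and Kcnj16 was at least 1.47 in all 24 pools and that of Kcnj15 at most 0.899.

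Daily variation was tested for every gene with a 24 h cosine and sine in limma on log2(RPKM + 0.1), with a false discovery rate (FDR) of 0.05 over 11863 genes. In RNA-seq 4 of the 7 genes had a 24 h component, Atp1b1, Kcnj1, Fxyd2 and Kcnj16, beside 48.6% of all genes. In RPF-seq there were 3 of 7, Atp1b1, Kcnj16 and Kcnj1, beside 30.9% of all genes. In TE there were 4 of 7, Atp1b1, Kcnj1, Kcnj16 and Kcnj10, beside 17.1% of all genes. None of the 7 combined this with a fitted peak-to-trough fold of 1.5 or more, which 10.2% (RNA-seq), 7.58% (RPF-seq) and 3.74% (TE) of genes did; the unadjusted p was under 0.05 for 4, 5 and 4 of the 7, beside 56.3%, 42.6% and 34.0% of all genes. A test for any difference among the 12 times called 3 of 7 genes in RNA-seq, Atp1b1, Kcnj1 and Kcnj10, beside 31.0% of all genes. The same test called Atp1b1 alone in RPF-seq, beside 12.8%. Amplitudes were modest: the called folds lay between 1.10 and 1.41 in RNA-seq, where the median called gene had 1.31. With a replicate series alone (12 libraries), 1 to 2 of the 7 kept a call in RNA-seq, 0 to 2 in RPF-seq and 0 in TE.

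**Figure D2:**
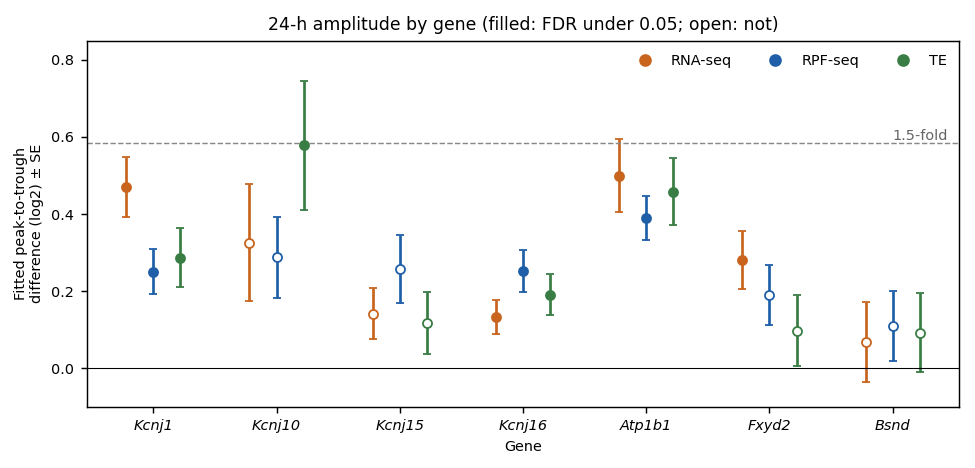
Fitted peak-to-trough difference (y axis, log2 scale, ± SE) of each gene (x axis) in RNA-seq, RPF-seq and TE; filled points had an FDR under 0.05 and the dashed line marks 1.5-fold. Atp1b1, Kcnj1 and Kcnj16 are filled in all 3 measures, Fxyd2 is filled in RNA-seq only, Kcnj10 is filled in TE only, and no point for Kcnj15 or Bsnd is filled.

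Atp1b1, the beta subunit of the pump, had the clearest daily course. Its mRNA stayed between 1563 and 2078 RPKM in the light phase. In the late night the level was lower, with 1360 and 1305 RPKM at ZT18, 1181 and 1205 at ZT20, and 1114 and 1194 at ZT22. These 6 libraries were below all 18 others. The fit gave a 1.41-fold peak-to-trough change (log2 0.50 ± 0.10 SE) with a peak at 8.05 ± 0.728 h (FDR = 0.000561), and the test for any time difference gave FDR = 0.000785. Footprints crested later. They reached 4104 and 4052 RPKM at ZT10 and 4176 and 4312 at ZT14, against 3010 and 3485 at ZT0 and 3098 and 3191 at ZT22. The footprint fit gave 1.31-fold (log2 0.39 ± 0.06) with a peak at 12.1 ± 0.568 h (FDR = 7.38e-05), 4.03 h after that of the mRNA. Fitted on replicate 1 or 2 alone, this lag was 3.47 and 4.72 h.

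The TE of Atp1b1 also moved through the day and was higher in the dark phase. It had a lowest, median and highest value of 1.76, 1.97 and 2.52 in the 12 light pools, and of 2.27, 2.52 and 2.78 in the 12 dark pools. The phases overlapped only through ZT10 replicate 2, since the other light pools were at most 2.18. The fitted fold was 1.37 with a peak at 16.9 ± 0.724 h (limma FDR = 0.00459). Dark-phase peaks were found for 8.08% of all genes in TE. All 3 calls of Atp1b1 were kept when each of the 24 pools was left out in turn, and with relative depth as a covariate (FDR = 0.0108 for mRNA, 0.000178 for footprints and 0.00726 for TE).

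**Figure D3:**
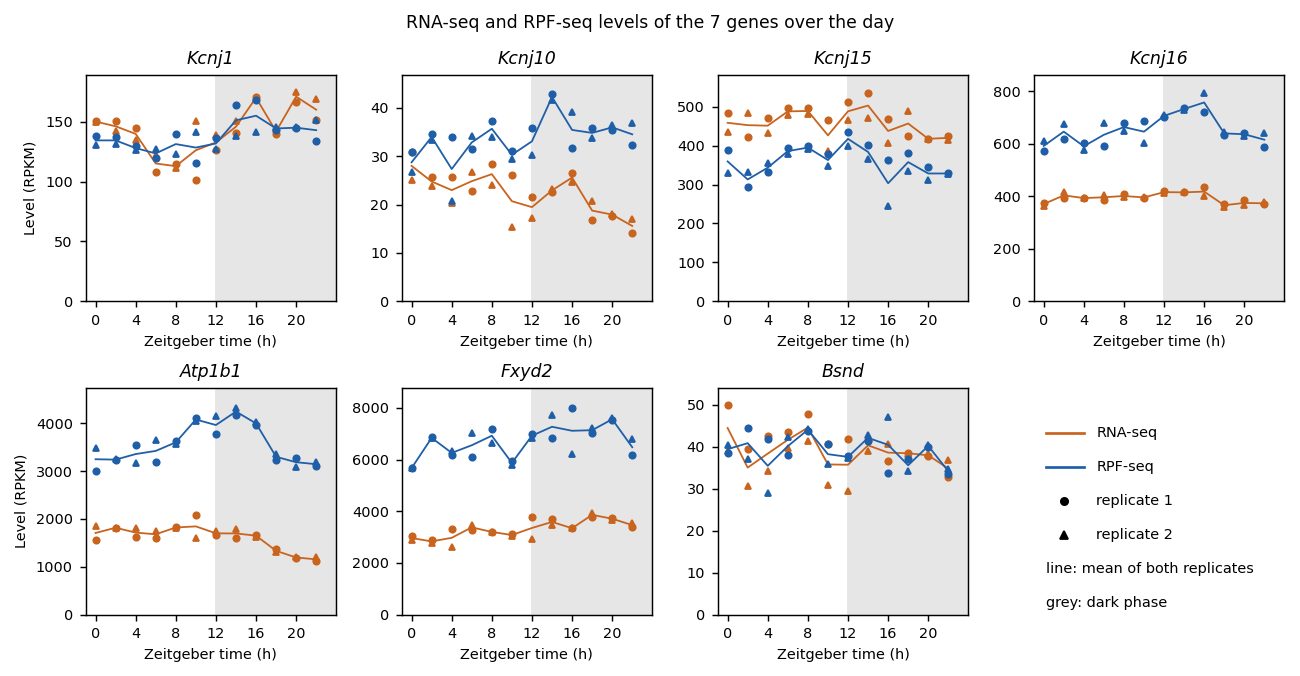
RNA-seq and RPF-seq levels (y axes, RPKM, starting at 0) of the 7 genes against Zeitgeber time (x axes, h); circles and triangles are replicates 1 and 2, lines their mean, and grey the dark phase. Atp1b1 mRNA drops to 1114 to 1360 RPKM at ZT18 to ZT22 while its footprints crest at ZT10 to ZT16, and Kcnj1 mRNA is 108 to 122 RPKM at ZT6 and ZT8.

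Fxyd2, which encodes the gamma subunit of the pump, had its mRNA peak in the dark phase, unlike Atp1b1. It was at 2902 and 2758 RPKM at ZT2 and at 3788 and 3928 at ZT18, without overlap between these times, although light and dark pools overlapped as a whole. The fitted fold was 1.22 (log2 0.28 ± 0.08) with a peak at 16.6 ± 1.03 h (limma FDR = 0.0121), and 22.7% of all genes had a called mRNA peak in the dark phase. Fxyd2 footprints had a fitted fold of 1.14 at 16.2 h that did not pass (FDR = 0.151), and its TE did not either (1.07-fold, FDR = 0.696). With depth as a covariate the mRNA call was lost (FDR = 0.0702). Proximal tubule markers (8 of 8 in the files) summed to 41963 to 51763 RPKM in light pools and 46251 to 68859 in dark pools, of which Kap alone made 89.9%. Without Kap the sum was 4920 to 5528 and 5035 to 5950 RPKM. Over 24 libraries Fxyd2 had a Pearson correlation of 0.81 with the mean log2 level of the 8 markers and, in RPKM, of 0.58 with Kap and of -0.09 to 0.77 with the other 7 one by one. Their part in the result was not tested.

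The proportion of the gamma to the beta subunit was compared within libraries, so that scaling cancels. Fxyd2 to Atp1b1 mRNA was 1.60 and 1.52 at ZT2 and 3.18 and 3.04 at ZT20, a fitted 1.64-fold change (log2 0.71 ± 0.15) with a peak at 18.8 h (adjusted p = 0.00385, permutation of time labels, 100000 draws, 20 tests). In footprints the same ratio changed 1.27-fold with a peak at 22.1 h (adjusted permutation p = 0.026). Both calls were lost on either replicate alone, at folds of 1.61 and 1.67 in mRNA and of 1.25 and 1.30 in footprints.

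**Figure D4:**
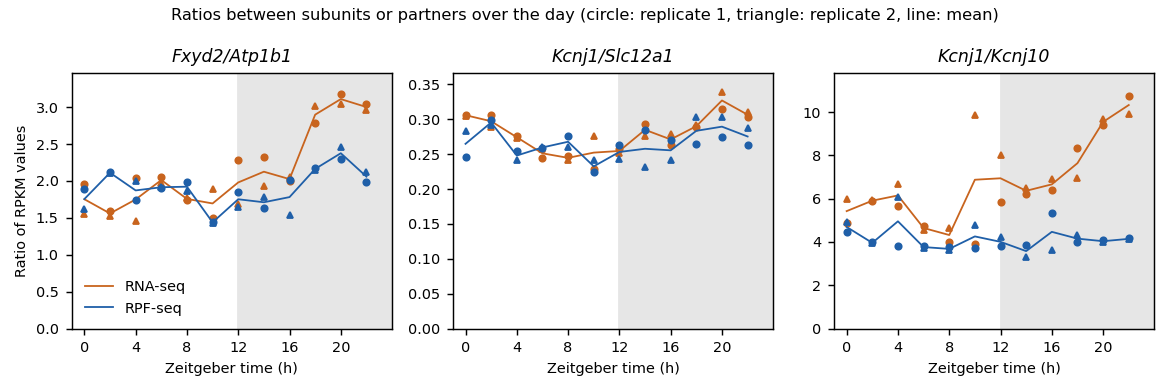
Ratio of RPKM values (y axes, starting at 0) for 3 gene pairs against Zeitgeber time (x axes, h) in RNA-seq and RPF-seq; circles and triangles are replicates 1 and 2, lines their mean, and grey the dark phase. The Fxyd2 to Atp1b1 mRNA ratio is 2.78 to 3.18 at ZT18 to ZT22, and the Kcnj1 to Slc12a1 mRNA ratio ranges from 0.228 to 0.339.

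Kcnj1 (ROMK) mRNA was lowest in the second part of the light phase and highest at night. It measured 108 and 122 RPKM at ZT6, 114 and 111 at ZT8, and 167 and 175 at ZT20. The replicates parted at ZT10, with 102 and 151 RPKM. The fit gave 1.39-fold (log2 0.47 ± 0.08) with a peak at 19.9 ± 0.631 h (limma FDR = 0.000117), and the test for any time difference FDR = 0.0106. Footprints followed with a smaller amplitude, 1.19-fold (log2 0.25 ± 0.06) with a peak at 17.8 ± 0.889 h (FDR = 0.0064), from 120 and 127 RPKM at ZT6 to 168 and 142 at ZT16. TE was highest when mRNA was low, 1.22 and 1.11 at ZT8 against 0.866 and 0.831 at ZT20. The fitted change was 1.22-fold, peaking at 9.62 ± 1.01 h (limma FDR = 0.0308). As TE is divided by the same mRNA values, its opposite course restates the smaller amplitude of footprints and is not a separate result. A called TE peak in the light phase was found for 9.01% of all genes. The mRNA and footprint calls were kept without each of the 24 pools, but the TE call was lost without either pool of ZT8, either pool of ZT20 or ZT10 replicate 1 (FDR up to 0.068) and under quantile normalisation (FDR = 0.0567).

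Kcnj1 was set against Slc12a1, the sodium-potassium-chloride cotransporter that works beside ROMK in the apical membrane of the thick ascending limb and depends on the potassium it recycles. The Kcnj1 to Slc12a1 mRNA ratio ranged from 0.228 to 0.339 and changed 1.27-fold with a peak at 21.3 h (log2 0.34 ± 0.04, adjusted permutation p = 0.0002). Its means were highest at ZT20 (0.327) and lowest at ZT8 (0.245). The footprint ratio had a fitted fold of 1.14 (log2 0.19 ± 0.06) and missed the threshold (adjusted permutation p = 0.06). The thick ascending limb markers (6 of 6 in the files) summed to 3480 to 4327 RPKM in light pools and 3836 to 4796 in dark pools, of which Umod alone made 63.0%. Over 24 libraries Kcnj1 had a Pearson correlation of 0.72 with the mean log2 level of the 6 markers and, in RPKM, of 0.23 with Umod and of -0.30 to 0.76 with the other 5 one by one. With the mean of the 5 distal convoluted tubule markers the correlation was 0.63, and with principal cell, proximal tubule and intercalated cell markers 0.33, 0.24 and 0.22. The part of any of these markers in the daily course of Kcnj1 was not tested.

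Kcnj10 showed the widest swing in TE of the set. TE was 0.994 and 1.07 at ZT0 and 2.29 and 2.16 at ZT22, neighbouring times of the daily cycle. The light pools had a lowest, median and highest TE of 0.994, 1.32 and 1.93, and the dark pools of 1.19, 1.84 and 2.29, so that the phases overlapped. The fitted fold was 1.49 (log2 0.58 ± 0.17) with a peak at 17.0 ± 1.10 h (limma FDR = 0.0465). Kcnj10 mRNA was 31.0 and 25 RPKM at ZT0 and 14.1 and 17.0 at ZT22, and differed among times (FDR = 0.0389), though not as a 24 h wave (1.25-fold, FDR = 0.181). Footprints, with 30.8 and 26.7 RPKM at ZT0 and 32.3 and 36.8 at ZT22, had no called component (1.22-fold, FDR = 0.0978). Kcnj10 mRNA rested on 687 and 617 reads at ZT0 and on 220 and 205 at ZT22. The TE call stood near the threshold. With depth as a covariate it was lost (1.47-fold, FDR = 0.0623), as under median-of-ratios scaling (FDR = 0.0519). It was kept without 7 of the 24 pools and lost without the other 17, namely both pools of ZT2, ZT4, ZT6, ZT8, ZT12, ZT14 and ZT20, ZT10 replicate 1, ZT18 replicate 1 and ZT22 replicate 2, with FDR from 0.0143 to 0.0901 and folds from 1.44 to 1.62. The Kcnj1 to Kcnj10 mRNA ratio, an apical over a basolateral channel, changed 1.72-fold with a peak at 19.2 h (adjusted permutation p = 0.0114) and had a fold of 1.12 in footprints (adjusted permutation p = 0.468); on replicate 2 alone the mRNA call was lost, at 1.46-fold (adjusted p = 0.409).

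**Figure D5:**
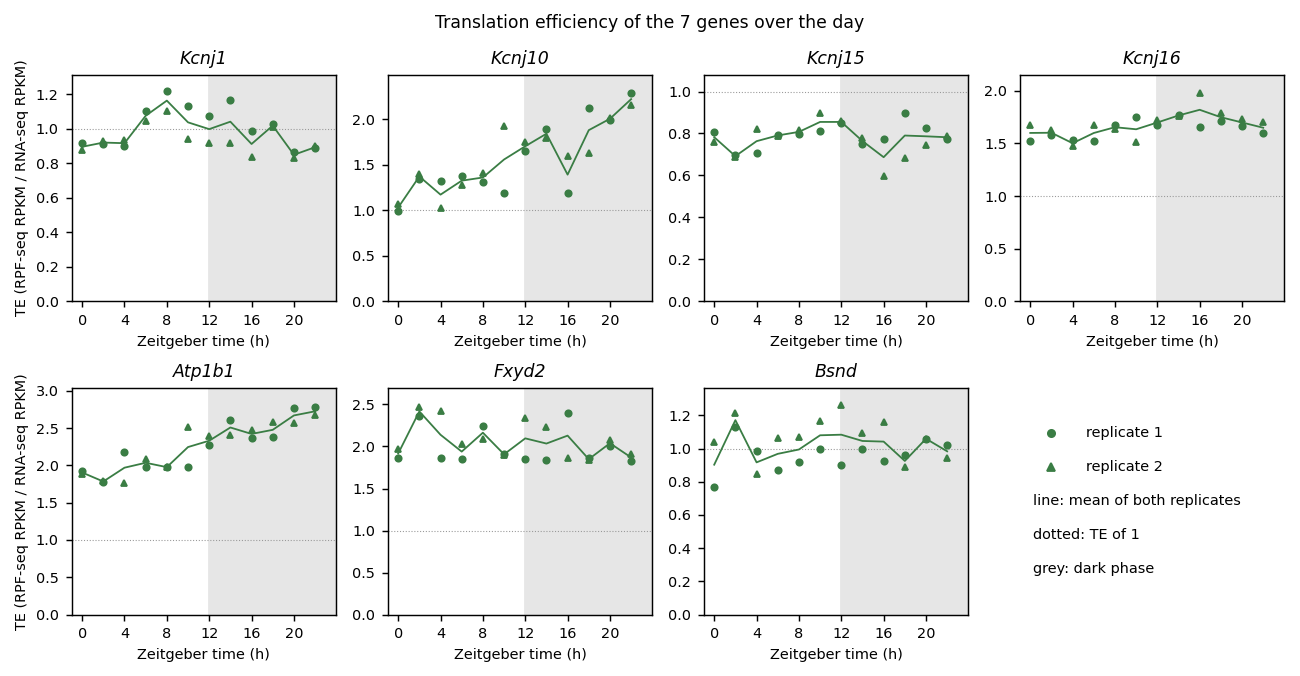
TE (y axes, footprint RPKM over mRNA RPKM, starting at 0) of the 7 genes against Zeitgeber time (x axes, h); circles and triangles are replicates 1 and 2, lines their mean, grey the dark phase and the dotted line a TE of 1. The TE of Kcnj10 goes from 0.994 and 1.07 at ZT0 to 2.29 and 2.16 at ZT22 and that of Atp1b1 from 1.93 and 1.89 to 2.78 and 2.67.

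Kcnj16, the partner of Kcnj10 in the distal convoluted tubule, was the steadiest mRNA of the set. It varied by 5.06% (coefficient of variation) over the 24 libraries, from 361 to 436 RPKM. As its mean was 394 RPKM against 22.3 for Kcnj10, its values cannot be read as those of that channel alone. From which tubule segments the Kcnj16 reads came was not tested. Its footprints were 605 and 577 RPKM at ZT4 and 722 and 794 at ZT16. The footprint fit gave 1.19-fold (log2 0.25 ± 0.05) with a peak at 13.7 ± 0.828 h (limma FDR = 0.00356) and was kept without each pool in turn. A called footprint peak in the dark phase was found for 13.6% of all genes and one in the light phase for 17.3%. The mRNA fold was 1.10 at 10.6 h (FDR = 0.0425, one of the 25.9% of genes with a called light-phase mRNA peak) and the TE fold 1.14 at 15.8 h (FDR = 0.039). Both calls were marginal. The mRNA call was lost without any of 13 pools (both of ZT0, ZT12, ZT14, ZT20 and ZT22, ZT6 replicate 2, ZT8 replicate 1 and ZT18 replicate 1; FDR up to 0.078) and the TE call without any of 11 (both of ZT4, ZT14 and ZT20, ZT2 replicate 1, ZT6 replicate 1, ZT8 replicate 2, ZT16 replicate 2 and ZT18 replicate 2; FDR up to 0.082). With depth as a covariate they had FDR = 0.084 and 0.0505.

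No 24 h wave was called in the proportions of the basolateral Kir subunits, and other time patterns of these ratios were not tested. By time point the Kcnj10 to Kcnj16 mRNA ratio was highest at ZT0 (0.0824 and 0.0686) and lowest at ZT22 (0.0382 and 0.0452). Kcnj10 mRNA was 0.0567 ± 0.0109 of Kcnj16 mRNA, and the ratio of footprints was 0.0515 ± 0.00573, with fitted folds of 1.23 (log2 0.30 ± 0.16) and 1.10 (log2 0.14 ± 0.10) and adjusted permutation p = 0.312 and 0.468. Kcnj15 to Kcnj16 was 1.16 ± 0.0897 in mRNA and 0.548 ± 0.0737 in footprints, with folds of 1.03 (log2 0.04 ± 0.07, adjusted permutation p = 0.861) and 1.20 (log2 0.26 ± 0.12, adjusted permutation p = 0.157). Kcnj10 to Kcnj15 had folds of 1.19 in mRNA (log2 0.25 ± 0.14, adjusted permutation p = 0.333) and 1.30 in footprints (log2 0.38 ± 0.15, adjusted permutation p = 0.1). Kcnj15 itself passed no test. Its mRNA ranged from 387 to 536 RPKM (1.10-fold, limma FDR = 0.189), its footprints from 245 to 435 RPKM (1.20-fold with a peak at 9.65 h, FDR = 0.0692) and its TE from 0.600 to 0.899 (1.08-fold, FDR = 0.514). Single pools decided this. Kcnj15 footprints passed without ZT16 replicate 2 (FDR = 0.00578), which held their lowest value, and also without ZT0 replicate 1 or ZT10 replicate 2, and its mRNA passed without ZT10 replicate 2 (FDR = 0.0221), which held the lowest mRNA value.

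Bsnd (barttin) was flat at the precision of these data. Its mRNA had a lowest, median and highest value of 29.5, 39.0 and 49.9 RPKM, its footprints 29.0, 39.2 and 47.1 RPKM, and fitted folds were 1.05 (log2 0.07 ± 0.10, limma FDR = 0.845), 1.08 (log2 0.11 ± 0.09, FDR = 0.61) and 1.07 in TE (FDR = 0.771).

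The other genes of tubular salt and potassium transport were counted from 4 lists with 50 tested genes in all. A 24 h component was called for the mRNA of 24 (48%), the footprints of 29 (58%) and the TE of 9 (18%), beside 48.6%, 30.9% and 17.1% of all genes. The median fold was 1.19, 1.19 and 1.14, beside 1.20, 1.18 and 1.19 over all genes. Of 8 other sodium pump genes, 1 was called in TE, Fxyd4 (1.38-fold, peak at 23.6 h). Of 10 other potassium channels, 4 were called in each of RNA-seq and RPF-seq, 2 with light-phase and 2 with dark-phase peaks. Among them Kcnk5, a pH-sensitive potassium channel of the proximal tubule, changed 1.60-fold in footprints with a peak at 17.1 h, and Kcnt1 changed 1.58-fold in mRNA. Of 12 chloride channel genes, 6 were called in RNA-seq and 11 in RPF-seq, 3 of the latter with light-phase and 8 with dark-phase peaks. Cftr mRNA changed 1.73-fold (peak at 21.6 h) and Clcn2 mRNA 1.65-fold (peak at 12.1 h). Of 20 apical transporters and regulators, 12 were called in RNA-seq (3 light, 9 dark), 12 in RPF-seq (2 light, 10 dark) and 5 in TE. Over all genes, 3073 called peaks lay in the light phase and 2688 in the dark phase in RNA-seq. In RPF-seq they numbered 2055 and 1608.

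The largest changes in these lists were those of Tsc22d3 and Sgk1, both known as corticosteroid-induced genes. Tsc22d3 (GILZ) changed 4.37-fold in mRNA and 5.33-fold in footprints, with peaks at 15.7 and 15.4 h, and Sgk1, a kinase that raises sodium channel activity, 2.64-fold and 2.43-fold, with peaks at 16 and 15.7 h. Slc12a7, a potassium-chloride cotransporter, changed 1.58-fold in mRNA with a peak at 7.93 h. Hsd11b2, which inactivates glucocorticoids in aldosterone target cells, changed 1.77-fold in mRNA with a peak at 5.06 h and 2.08-fold in TE with a peak at 17.4 h. All these changes had an FDR under 0.05 in limma.

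By profile over the 24 RNA-seq libraries, the genes most like each member were, with Pearson r as a description, Mkks (0.95), Clcn5 (0.91) and Pde3b (0.90) for Kcnj1, and Vamp2 (0.91), Traf3ip1 (0.90) and Ezr (0.89) for Atp1b1. Hint2 (0.91), Bscl2 (0.91) and Agpat1 (0.90) were nearest to Fxyd2, and Palld (0.88), Pax2 (0.87) and Ripor1 (0.86) to Kcnj10. For Kcnj15 they were Aspg (0.87), Aspdh (0.84) and Pcx (0.82), for Kcnj16 Nudt16l1 (0.78), Gps2 (0.76) and Slc4a4 (0.76), and for Bsnd Mef2d (0.82), Notch1 (0.81) and Arhgef18 (0.81). In RPF-seq none of these genes recurred for the same member. There the nearest were Gldc (0.80) for Kcnj1, Paqr4 (0.81) for Kcnj10, Cdc16 (0.89) for Kcnj15, Abhd5 (0.89) for Kcnj16, Fabp3 (0.90) for Atp1b1, Mrpl23 (0.85) for Fxyd2 and Dbn1 (0.82) for Bsnd. All libraries of an assay share the day's time points and the preparation of their pools, and the points are not independent. Between members, Atp1b1 mRNA had r = -0.62 with Fxyd2 and r = -0.56 with Kcnj1, and r = 0.67 with Kcnj10.

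Markers placed the libraries in kidney, with all of 6 thick ascending limb, 5 distal convoluted tubule, 7 principal cell, 6 intercalated cell and 8 proximal tubule markers in the files. No adrenal cortex or skeletal muscle marker was in the files of either assay. Adipocyte markers (3 of 5 in RNA-seq) summed to 7.56 to 44.9 RPKM in light pools and 2.17 to 18.3 in dark pools. Hepatocyte markers (5 of 5) summed to 129 to 400 RPKM in light pools and 127 to 464 in dark pools. Most of the latter sum was Ttr, with a mean of 288 RPKM. Alb had 14.1, Serpina1a 6.42, Apoa1 2.97 and Fgb 2.53 RPKM. The part of adipocyte and hepatocyte markers in the members' daily courses was not tested.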

How the data were processed

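RNA-seq and RPF-seq of 24 kidney lysate pools (2 per time point, 2 mice each) were used as RPKM values per gene. Per the labels and the study's methods, the authors removed rRNA and tRNA reads, aligned the rest to mouse transcripts and the genome (GRCm38), counted reads within coding sequences and deposited RPKM after upper-quantile normalisation in edgeR, 1 file per library. Tools named in the submitters' notes include Bowtie2 2.2.1, TopHat2 2.0.11, Cufflinks 2.2.1 and cutadapt. Strand use in counting was not given in the sources used here, and the RPKM cutoff behind the 12728 (RNA-seq) and 12622 (RPF-seq) listed genes is not known. Relative depth came from whole-read steps (tolerance 0.02 reads), so depth is known only relative to other libraries, and intervals from counting are not given.

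Values were taken as log2(RPKM + 0.1). Genes with a median of at least 0.5 RPKM in both assays (11863) were fitted in limma 3.58.1 (R 4.3.3) with 24 h cosine and sine terms or with 12 time factors, and Benjamini-Hochberg FDR under 0.05 was called. A peak-to-trough fold is that of the fitted curve, and understates change in lowly expressed genes. TE was the log2 difference of RPF-seq and RNA-seq within a pool, fitted likewise. Ratios and level orders used permutation tests (two-sided, 100000 draws). Scripts were tested on simulated data. Replicates are separate pools of animals. Pools of the same replicate number deviated little together across time points on average. The mean correlation was 0.0291 in RNA-seq (from -0.181 to 0.480) and 0.0197 in RPF-seq (from -0.204 to 0.185). Single pairs of times thus reached higher values, and the labels do not say what sets the numbers apart. RNA-seq and RPF-seq of a pool deviated together (0.238, from 0.106 to 0.446 at the 12 times).

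The members and lists were chosen with earlier results of these data known. Genes named were the 7 members, their partners in ratios, list genes with FDR under 0.05 and a fold of at least 1.5, 3 most similar genes per member and assay (the first of them in RPF-seq is printed) and 4 clock genes. Alternatives covered pseudocount, filter, scaling, replicate block, depth, a 12 h harmonic, model choice by AIC, FDR 0.01 and left-out replicates. Leaving out each pool was chosen after seeing the data. Some list genes and the ratios that use them are not reported here.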

Additional observations from a re-analysis of the deposited data

Results flagged for a closer look

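For 4 genes the daily curve of footprints differed from that of mRNA in the same pools, as tested by the 24 h component of TE in limma. The TE fold was 1.37 for Atp1b1 (FDR = 0.00459), 1.22 for Kcnj1 (FDR = 0.0308), 1.14 for Kcnj16 (FDR = 0.039) and 1.49 for Kcnj10 (FDR = 0.0465). Of these, the Atp1b1 call was kept without each of the 24 pools in turn, and the other calls were lost without 5, 11 and 17 pools, respectively. Time points held 2 pools each, too few for a test of single outlying samples.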

How the results depend on the processing

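Counts of members with a 24 h component were 4 (RNA-seq), 3 (RPF-seq) and 4 (TE). Depth as a covariate gave 2 in RNA-seq and 2 in TE, and an FDR of 0.01 gave 2 and 1. An added 12 h harmonic gave 1 in TE, and AIC choice gave 6 in RPF-seq. Calls over all 11863 genes moved as well. In the main setting they were 5761 (RNA-seq), 3663 (RPF-seq) and 2028 (TE). With depth they were 5007 in RNA-seq and 1712 in TE, and at an FDR of 0.01 they were 3753 and 560. The 12 h harmonic left 1357 in TE, and AIC choice gave 7090 in RPF-seq. Under quantile normalisation the any-time counts were 5 (RNA-seq) and 0 (RPF-seq), beside 3472 and 1418 of all 11863 genes. The TE of Fxyd2 (1.25-fold, FDR = 0.0212) and the mRNA of Kcnj15 (1.17-fold, FDR = 0.0239) then passed. The TE calls of Kcnj1 (FDR = 0.0567) and Kcnj10 (FDR = 0.0569) were lost. Leaving out a whole replicate series gave 1 to 2 members in RNA-seq, 0 to 2 in RPF-seq and 0 in TE, 1 to 5 of 20 ratio tests, and 6 to 18, 3 to 12 and 0 to 0 pathway genes, against 24, 29 and 9 with both replicates. Only 12 libraries enter those fits, and over all 11863 genes TE calls fell from 2028 to 0 and 2. RNA-seq calls fell from 5761 to 1200 and 4144, and RPF-seq calls from 3663 to 460 and 2074. Leaving out a single pool gave 3 to 5 members in RNA-seq, 3 to 4 in RPF-seq and 1 to 4 in TE. Calls over all genes were then 5244 to 6294, 3279 to 3765 and 1369 to 2299. For the ratios 8 tests were called with the only pool left out there (ZT4 replicate 2).

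The replicate block kept the count of members at 4 in RNA-seq and 3 in RPF-seq. It gave 3 in TE, where Kcnj10 moved to FDR = 0.0501. Over all 11863 genes the block gave 5783, 3683 and 2161 calls. Replicate numbers were not shown to pair pools across time points, and the block gave 7 ratio calls and 24, 29 and 10 pathway genes. No called peak of a member moved by more than 6 h under any of these settings, the 12 h harmonic aside, for which peaks were not compared. All scalings moved the median gene by at most 0.0443 on the log2 scale. Folds of the abundant pump subunits still changed under quantile normalisation. That of Atp1b1 went from 1.41 to 1.525 in mRNA and from 1.31 to 1.24 in footprints, with both calls kept. The fold of Fxyd2 footprints went from 1.14 to 1.03, without a call in either setting.

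Precision is limited by 2 pools a time point, by depth known only in relative terms, and by RPKM in place of counts.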
